A study of Homo sapiens with 4 samples.

Results

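The transcripts of 39 genes of glycolysis, the pentose phosphate pathway and the response to low oxygen were followed across the 4 RNA-seq libraries of a study of the inhibitor JQ1 in T cells, out of 50868 gene IDs in the count tables. The 39 were taken by gene symbol from a list ordered along the pathway, and all 39 were found. They lie on 13 chromosomes. The cells were Jurkat, a human cell line established from a T-cell leukemia, and had been kept for 24 h in the solvent DMSO or in 0.5 µM JQ1, either alone or together with 150 ng/ml PHA. Values quoted for the 4 conditions in turn follow this sequence: DMSO, JQ1, DMSO + PHA, JQ1 + PHA. JQ1 is a small molecule that displaces BET proteins from acetylated chromatin, and PHA (phytohemagglutinin) is a plant lectin that activates T cells through the T-cell receptor complex. Each condition was 1 library of a single leukemia line, so no difference below has a replicate check and no p-value is given.

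Glucose enters the cell through transporters, is phosphorylated by a hexokinase, is split by an aldolase and is turned by the lower steps of glycolysis into pyruvate. Pyruvate is either reduced to lactate or admitted to the mitochondrion by pyruvate dehydrogenase, which the PDK kinases switch off. The pentose phosphate pathway branches off at glucose 6-phosphate and supplies NADPH and ribose for nucleotides. Many steps have more than 1 gene for the same reaction (isoenzymes), and proliferating and activated T cells are known for high rates of glucose use and lactate release. HIF1A encodes the oxygen-regulated subunit of the transcription factor HIF-1, which is known to raise the transcripts of many glycolytic genes. HIF1A is regulated mainly through the stability of its protein, which transcript counts do not measure.

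The 4 libraries held 18620954 to 19685401 counts, so 3 counts, taken as the limit of detection, corresponded to 0.152 to 0.161 counts per 1000000 (CPM). The lowest count of any member in any library was 81, for PFKM, and the highest was 89459, for GAPDH. All 13 T-cell markers examined were above 3 counts in every library, with a summed level of 2327 to 3831 CPM. Of 19 markers of other cells, 5 were above 3 counts in every library, 6 were at 0 in all of them, and the list summed to 13.6 to 30.9 CPM. The spread of this sum came mainly from CD79A, a B-cell receptor gene that itself was lower with JQ1, at 343, 51, 304 and 46 counts in turn, and without it the list summed to 10.8 to 15.4 CPM. Shares of counts are relative, and in bulk RNA fewer cells of a type and less RNA per cell cannot be told apart. HEXIM1, a gene known to respond to BET inhibitors, measured 36.2 FPKM (fragments per 1000 bases of exon and 1000000 mapped reads) with DMSO and 109 with JQ1, and 34.6 and 104 in the same order with PHA. CD69, an early activation marker, measured 1.05 FPKM with DMSO and 0.766 with JQ1 in unstimulated cells, against 20.4 and 3.14 in PHA-stimulated cells.

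With JQ1 none of the 35 members with a mean of at least 1 FPKM differed by 2-fold. PDK2, below that level, was 2.15-fold lower by share of counts in the presence of PHA. The ratio between isoenzymes shifted at several steps with and without PHA, by amounts near those of pairs of genes in general. HK1 gained on HK2, ALDOC on ALDOA, ENO2 on ENO1, LDHA on LDHB and PDK3 on PDK2. HIF1A and BNIP3 were higher with JQ1, and LDHB, ALDOA, PFKP and TKT were lower. With PHA a single member differed by over 2-fold, the glucose transporter SLC2A3, whose count was 167 with DMSO and 511 with DMSO + PHA. SLC2A3 reached a mean of 1 FPKM only because of its values in the PHA libraries.

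All 39 members together took 1.43% of the counts with DMSO and 1.32% with JQ1 in unstimulated cells, and 1.29% and 1.33% in PHA-stimulated cells. GAPDH, the glyceraldehyde 3-phosphate dehydrogenase that is often used as a reference gene, was the most abundant. Without GAPDH the members took 1.04% with DMSO and 0.869% with JQ1, and 0.956% and 0.853% in the same order with PHA. The direction of the JQ1 difference in the presence of PHA therefore depended on GAPDH, which was lower in both DMSO libraries than in both JQ1 libraries.

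To ask how JQ1 changed each gene, the log2 ratio of FPKM + 0.1 was taken for genes with a mean of at least 1 FPKM over the 4 libraries, which 11503 genes and 35 of the 39 members reached. PFKM, SLC16A3, PDK2 and EGLN3 fell short, with counts of 81 to 225 in every library. SLC2A3 reached this level, with a mean of 1.16 FPKM, only because of its values in the PHA libraries. PDK2, with a mean of 0.843 FPKM, fell short through its JQ1 libraries. It measured 1.14 FPKM with DMSO and 1.05 with DMSO + PHA, against 0.69 with JQ1 and 0.488 with JQ1 + PHA. Of the 11503 genes, 13.9% lay past 2-fold with JQ1 in the absence of PHA and 11.7% in its presence, against 0 of 35 members in each. The ratios of the 35 spanned -0.85 to 0.85 without PHA and, with PHA, -0.74 to 0.70. Their median size was 0.32 without PHA, against 0.41 over all genes, and 0.37 with PHA, against 0.36. The median signed ratio lay near 0 in both lists, at 0.05 for the members and -0.01 for all genes without PHA, and at -0.08 and -0.02 with PHA.

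**Figure D1:**
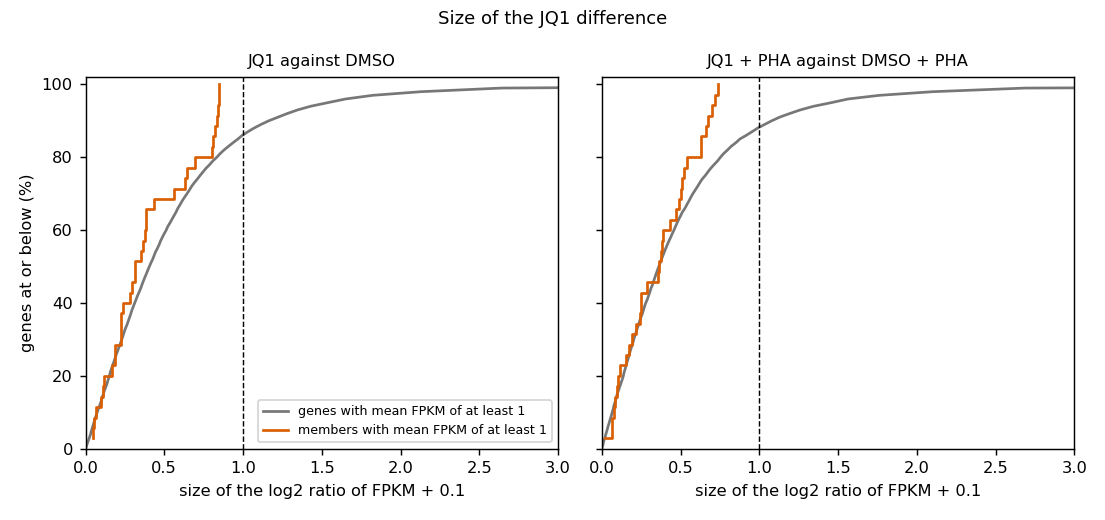
Percentage of genes (vertical axis) whose JQ1 difference, as the size of the log2 ratio of FPKM + 0.1 (horizontal axis, drawn up to 3), lies at or below a value, for the 11503 genes in grey and the 35 members in orange, without PHA on the left and with PHA on the right. The orange line ends below the dashed 2-fold line in both panels, while 13.9% and 11.7% of all genes lie beyond it.

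At a lower bar of 1.5-fold, 4 members were higher with JQ1 in the absence of PHA (ALDOC, PDK3, HIF1A and BNIP3), where the share over all genes was 14.8%. In the same comparison 6 were lower (GPI, PFKP, ALDOA, ENO1, LDHB and TKT), against 19.3% of all genes. With PHA present 3 were higher (PDK3, HIF1A and BNIP3; all genes, 11.7%) and 4 were lower (SLC2A3, PFKP, ALDOA and LDHB; all genes, 17.8%). PDK3, HIF1A and BNIP3 were past 1.5-fold upward in both comparisons, as were 7.82% of all genes, and PFKP, ALDOA and LDHB were past it downward in both, as were 13.2%. These shares of the members, 8.57% in each direction, were near or below those of all genes.

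For single genes the share of a library's counts was compared between 2 libraries, with a 95% exact (Clopper-Pearson) interval that covers counting error only and not the spread between cultures. By this measure 15 members had an interval above 0 and 18 below 0 with JQ1 in the absence of PHA, and 14 and 19 in its presence. Of the 11503 genes, 36.9% had an interval above 0 and 38.7% below 0 without PHA, and 34.6% and 38.2% with PHA. The members had more counts, with a median of 1918 a library against 713, and so narrower intervals, and nothing particular to them is read from these counts. In both comparisons the same 11 were higher (HK1, ALDOC, GAPDH, ENO2, PKM, PFKFB3, PDK3, HIF1A, EGLN1, VHL and BNIP3), as were 28% of all genes. Another 15 were lower in both (HK2, GPI, PFKP, ALDOA, PGAM1, ENO1, LDHB, SLC16A1, PFKFB2, PDK2, PDHA1, PGD, PGLS, TKT and RPIA), as were 30.8% of all genes.

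Glucose uptake is shared here by SLC2A1, which encodes the transporter GLUT1, and SLC2A3, which encodes the high-affinity transporter GLUT3. SLC2A1 measured 5.75 FPKM with DMSO and 6.03 with JQ1, and 5.98 and 5.31 in the presence of PHA. Its JQ1 log2 ratio of counts was 0.07 (-0.06 to 0.20) without PHA and -0.17 (-0.31 to -0.04) with PHA, so SLC2A1 was nearly level over the libraries. SLC2A3, at chr12:7919230-7936275 of GRCh38, measured 0.668, 0.879, 1.95 and 1.13 FPKM in the same order. It was highest with DMSO + PHA and its JQ1 ratio was 0.40 (0.10 to 0.69) without PHA and -0.79 (-1.0 to -0.57) in its presence.

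In upper glycolysis the 9 genes together made up 1489 CPM with DMSO and 1177 with JQ1 (log2 ratio -0.34, -0.36 to -0.31), and stood at 1462 and 1219 CPM with PHA (-0.26, -0.29 to -0.24). TPI1, the triose phosphate isomerase, measured 60.0 FPKM with DMSO and 55.5 with JQ1 in unstimulated cells, against 52.5 and 56.4 in PHA-stimulated cells. Its JQ1 ratio was -0.11 (-0.16 to -0.07) without PHA and 0.10 (0.05 to 0.15) with PHA, so both differences were small and opposite. Its pseudogenes, which are counted separately, had up to 12% as many counts as TPI1 itself. PFKP, the platelet-type phosphofructokinase, measured 38.2, 23.5, 39.4 and 24.9 FPKM in the same order. Both JQ1 libraries were below both DMSO libraries, with ratios of -0.70 (-0.77 to -0.64) and -0.66 (-0.73 to -0.60). GPI, which interconverts glucose and fructose 6-phosphates, had ratios of -0.63 and -0.49.

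In lower glycolysis the sum of the 6 genes was set largely by GAPDH and was 8063 CPM with DMSO and 8173 with JQ1, a ratio of 0.02 (0.01 to 0.03), and 7279 and 8389 CPM with PHA, a ratio of 0.20 (0.19 to 0.22). GAPDH measured 563 FPKM with DMSO and 658 with JQ1, and 476 and 694 in the presence of PHA. Its ratio was 0.23 (0.21 to 0.24) without PHA and 0.54 (0.53 to 0.56) with PHA, and it kept this direction under each of 5 other scalings of the libraries. ENO1, the main enolase, measured 435, 278, 389 and 273 FPKM in the same order, so both JQ1 libraries were lower, with ratios of -0.64 (-0.67 to -0.62) and -0.51 (-0.53 to -0.49). PGK1, the phosphoglycerate kinase, measured 136, 141, 143 and 135 FPKM. Its ratios of 0.06 (0.02 to 0.09) and -0.08 (-0.11 to -0.05) were among the smallest of the list. PKM, the pyruvate kinase of most proliferating cells, had a ratio of 0.39 in both comparisons, from counts of 14095 with DMSO and 19275 with JQ1 in unstimulated cells, against 14709 and 18211 in PHA-stimulated cells.

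The lactate step had the lowest ratio of summed level among the 8 steps without PHA, at 2981 CPM with DMSO and 2200 with JQ1 (-0.44, -0.46 to -0.42). The sum was 2412 CPM with DMSO + PHA and 2051 with JQ1 + PHA (-0.23, -0.25 to -0.21). LDHB, the lactate dehydrogenase subunit known from oxidative tissues, measured 314 FPKM with DMSO and 180 with JQ1, and 265 and 171 in the presence of PHA. Both JQ1 libraries lay below both DMSO libraries, with ratios of -0.81 (-0.83 to -0.78) and -0.63 (-0.66 to -0.60). LDHA, the subunit known from glycolytic tissues, measured 88.1, 78.6, 66.7 and 71.4 FPKM in the same order. Its ratios were -0.16 (-0.19 to -0.14) without PHA and 0.10 (0.07 to 0.13) in its presence. SLC16A1, the lactate transporter MCT1, was lower in both comparisons, at -0.38 and -0.25.

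The PFKFB enzymes make and break fructose 2,6-bisphosphate, the activator of phosphofructokinase. PFKFB2 measured 4.07 FPKM with DMSO and 3.32 with JQ1 in unstimulated cells, against 4.37 and 3.33 in PHA-stimulated cells, with JQ1 ratios of -0.29 (-0.43 to -0.15) and -0.39 (-0.53 to -0.25). YOD1, on the opposite strand of the same locus, had 1881, 1500, 2142 and 1395 counts in this order against 929, 793, 1043 and 753 for PFKFB2, and its part in the PFKFB2 values was not tested. The study's methods name a stranded kit and the labels a different one, and the strand setting of the counting is not given in the sources used here. PFKFB4 measured 2.29, 2.38, 2.58 and 2.46 FPKM, with intervals that included 0 in both JQ1 comparisons. PFKFB3, at 344 counts with DMSO and 541 with JQ1, had a ratio of 0.59 (0.39 to 0.79), and of 0.30 (0.12 to 0.48) with PHA.

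At pyruvate dehydrogenase, PDHA1, the catalytic alpha subunit, measured 12.5 FPKM with DMSO and 10.6 with JQ1, and 12.1 and 10.2 in the presence of PHA. Its JQ1 ratios were -0.23 (-0.32 to -0.14) and -0.25 (-0.34 to -0.16). PDHB, the beta subunit, measured 7.73, 9.05, 7.72 and 7.29 FPKM and stood alone in the JQ1 library, with ratios of 0.23 (0.13 to 0.33) and -0.08 (-0.19 to 0.02). The kinases moved apart. PDK3 had 255, 476, 326 and 505 counts and PDK2 had 225, 142, 216 and 95. The PDK2 ratio was -0.73 (-1.04 to -0.42) without PHA and -1.10 (-1.47 to -0.75) in its presence, the lowest ratio of counts of any member in the JQ1 comparisons, while the ratio of FPKM + 0.1 was -0.97. PDK1, the kinase best known as a HIF-1 target, had intervals that included 0, at 0.10 and -0.02.

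Among the genes of oxygen sensing, HIF1A measured 12.4 FPKM with DMSO and 21.7 with JQ1 in unstimulated cells, against 14.4 and 23.0 in PHA-stimulated cells. Both JQ1 libraries lay above both DMSO libraries, with ratios of 0.81 (0.74 to 0.89) and 0.68 (0.61 to 0.75). BNIP3, a mitophagy receptor, measured 10.7, 19.3, 10.9 and 16.9 FPKM in the same order, with ratios of 0.85 (0.76 to 0.95) and 0.63 (0.54 to 0.73). Its 39 pseudogenes, which are counted separately, had up to 13.9% as many counts as BNIP3 itself, and with those counts added the ratios were 0.82 and 0.61. EGLN1, the main oxygen-sensing prolyl hydroxylase, and VHL, which binds hydroxylated HIF1A for its degradation, were both higher at 0.19 without PHA, and at 0.19 and 0.22 with PHA. EGLN3, a further prolyl hydroxylase, was low, at 96 to 141 counts, and overlaps SPTSSA on the same strand, which had 658 to 851. The 5 genes summed to 333 CPM with DMSO and 500 with JQ1 (0.59, 0.54 to 0.63), and to 347 and 490 with PHA (0.50, 0.46 to 0.55), the highest ratios of summed level of the 8 steps. Most of this difference came from HIF1A and BNIP3. In the same order HIF1A stood at 120, 212, 140 and 224 CPM, and BNIP3 at 74, 134, 75.2 and 117.

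In the pentose phosphate pathway, PGD, which makes NADPH and ribulose 5-phosphate, measured 87.0 FPKM with DMSO and 69.8 with JQ1, and 79.4 and 73.4 in the presence of PHA. Its JQ1 ratios were -0.32 (-0.37 to -0.27) and -0.11 (-0.16 to -0.06). RPIA, the ribose 5-phosphate isomerase, measured 48.4, 37.3, 46.6 and 33.6 FPKM, with ratios of -0.38 (-0.48 to -0.27) and -0.47 (-0.58 to -0.36). TKT, a transketolase of the non-oxidative branch, was lower still without PHA, with 6989 counts with DMSO against 4061 with JQ1 (-0.85, -0.90 to -0.79), and 6007 against 3946 with PHA (-0.53, -0.58 to -0.47). TALDO1, the transaldolase of the same branch, was not lower, with ratios of 0.05 (-0.03 to 0.13) and 0.24 (0.16 to 0.32). The 5 genes summed to 1006 CPM with DMSO and 744 with JQ1 (-0.43, -0.47 to -0.40), and to 890 and 763 with PHA (-0.22, -0.25 to -0.19).

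Isoenzymes catalyse the same reaction, so the ratio of their counts within a library was compared between libraries. In this measure gene length and the scaling of the library cancel. There were 9 families and 15 pairs, of which those within the PFK, PFKFB and PDK families share genes. The intervals given cover counting error in the 4 counts. With JQ1 the interval left out 0 in 14 of 15 pairs without PHA and in 13 with PHA, and 12 pairs did so in the same direction in both. Among all pairs of 11481 genes with counts in every library, 73.4% did so without PHA, 70.9% with PHA and 55.3% in the same direction in both. The median size of the change was 0.80 without PHA and 0.69 with PHA, against 0.64 and 0.58 over all pairs. Past 2-fold lay 3 of the 15 without PHA, against 30.5% of all pairs, and 3 with PHA, against 26.6%. For PHA against no PHA the interval left out 0 in 9 pairs in DMSO-treated and 7 in JQ1-treated cells, where it did so in 48.5% and 31.7% of all pairs, and the median size was 0.26 and 0.18, against 0.27 and 0.18. The sizes were thus near those of any pair of genes in these libraries, and the values below describe the isoenzymes without setting them apart.

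The aldolase pair moved by 3.26-fold without PHA. ALDOA, the ubiquitous form, had 4153 counts with DMSO and 2403 with JQ1 in unstimulated cells, against 4229 and 2417 in PHA-stimulated cells. ALDOC, known as the brain form, had 366, 690, 590 and 726 counts in the same order. There were 11.3 ALDOA counts per ALDOC count with DMSO and 3.48 with JQ1 (log2 change -1.70, -1.90 to -1.51), and 7.17 and 3.33 with PHA (-1.11, -1.28 to -0.93). An unnamed transcript on the same strand, RP11-192H23.4, overlaps ALDOC. It had 86, 60, 66 and 42 counts and was lower with JQ1 while ALDOC was higher.

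For the hexokinases, HK1, the housekeeping form, had 1789, 2534, 2230 and 2722 counts and HK2, the form known from growth-stimulated cells, had 2542, 2065, 2708 and 1805. HK1 counts were 0.704 times those of HK2 with DMSO and 1.23 times with JQ1 (0.80, 0.68 to 0.92), and 0.823 and 1.51 times with PHA (0.87, 0.75 to 0.99). In counts the order of the pair thus turned over with JQ1 in both settings. Per base of the canonical transcript HK1 was the larger in all 4 libraries, at 52.4, 65.7, 56.3 and 70.2% of the pair, so which form leads depends on the length used and the shift does not.

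The lactate dehydrogenases shifted by less but with the narrowest interval. LDHA had 1.03 counts per LDHB count with DMSO and 1.60 with JQ1 (0.64, 0.60 to 0.68), and 0.925 and 1.53 with PHA (0.73, 0.69 to 0.77). Without PHA both subunits were lower with JQ1 and LDHB by more, and with PHA only LDHB was lower. For the enolases, ENO2, known as the neuronal form, had 1398, 1819, 1858 and 2375 counts. There were 29.6 ENO1 counts per ENO2 count with DMSO and 15.2 with JQ1 (-0.96, -1.06 to -0.86), and 20.9 and 10.8 with PHA (-0.95, -1.04 to -0.86).

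PDK2 counts were 0.882 times those of PDK3 with DMSO and 0.298 times with JQ1 (-1.56, -1.94 to -1.19), and 0.663 and 0.188 times with PHA (-1.82, -2.22 to -1.41). This pair and the aldolases were the 2 pairs past 2-fold in both JQ1 comparisons. PFKL, the liver-type phosphofructokinase, gained on PFKP by 0.82 (0.69 to 0.96) and 0.59 (0.46 to 0.73), through the lower PFKP. PFKFB2 lost to PFKFB3 by -0.88 (-1.12 to -0.64) and -0.69 (-0.91 to -0.47).

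The 3 exceptions were both transporter pairs and PFKM against PFKP. SLC2A1 against SLC2A3 changed by -0.33 (-0.64 to -0.01) without PHA and by 0.61 (0.37 to 0.86) with PHA, in opposite directions. SLC16A1 against SLC16A3, the lactate exporter MCT4, changed by -1.04 (-1.42 to -0.66) without PHA and by -0.29 (-0.64 to 0.07) with PHA. SLC16A3 had 94 to 155 counts and overlaps CSNK1D on the opposite strand, which had 1757 to 2161. PFKM against PFKP had intervals that included 0 in both comparisons, and PFKM, at 81 to 132 counts, overlaps SENP1 on the opposite strand, which had 1496 to 2381.

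**Figure D2:**
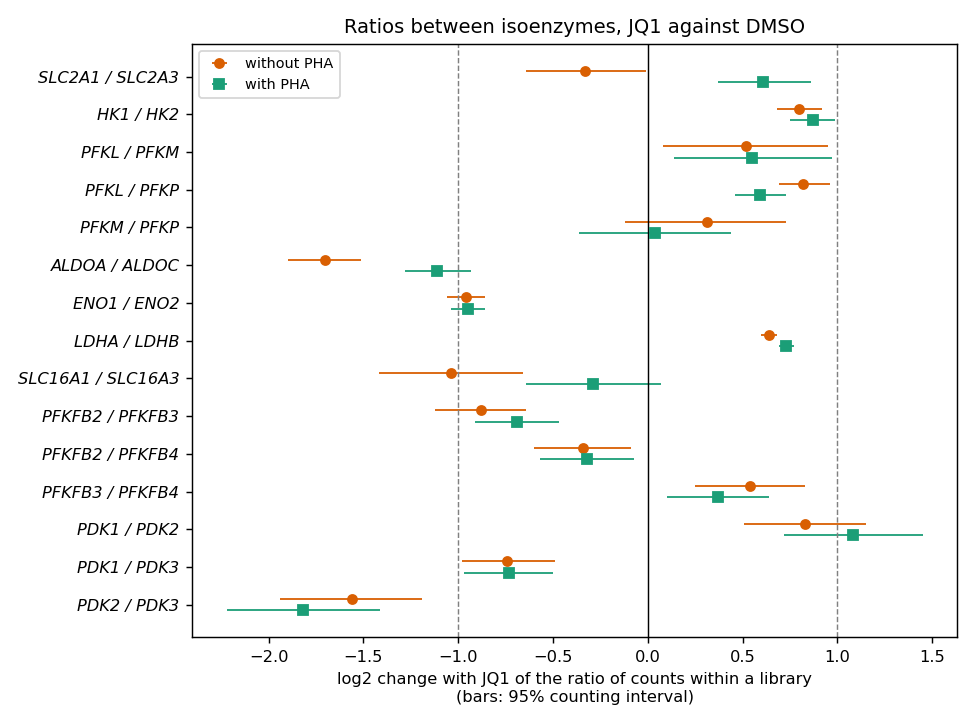
Change with JQ1 in the ratio of counts of 2 isoenzymes within a library (log2, horizontal axis) for the 15 pairs, without PHA (circles) and with PHA (squares), with bars for the 95% counting interval and dashed lines at 2-fold. The aldolase pair (-1.70 and -1.11) and PDK2 against PDK3 (-1.56 and -1.82) lie furthest from 0, and the glucose transporters lie on opposite sides of 0.

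The 300-base promoter windows of 6 of the members are shown, as RefSeq places them on GRCh38.p14, each from 250 bases before to 50 after an annotated start. Both aldolases and both lactate dehydrogenases are shown because their partners moved differently with JQ1. PDK3 and BNIP3 are shown as examples of members past 1.5-fold upward in both JQ1 comparisons. HIF1A was past it in both as well and is not shown, and its windows held 0 matches to the letters marked here. The windows of HK1 and PKM, also higher in both, held 0 too, so the genes shown do not represent the higher members. Each is written 5′ to 3′ on the strand of the gene. Capitals mark ACGTG on either strand (ACGTG or CACGT), which is a form of the core of the hypoxia response element that HIF-1 recognises. The other form, GCGTG, was not searched for, so a window without capitals may still hold it. Where both strands match at once the letters form CACGTG, the E-box recognised by MYC and other factors, so the searches overlap.
ALDOA, chr16:30064247-30064546, forward strand: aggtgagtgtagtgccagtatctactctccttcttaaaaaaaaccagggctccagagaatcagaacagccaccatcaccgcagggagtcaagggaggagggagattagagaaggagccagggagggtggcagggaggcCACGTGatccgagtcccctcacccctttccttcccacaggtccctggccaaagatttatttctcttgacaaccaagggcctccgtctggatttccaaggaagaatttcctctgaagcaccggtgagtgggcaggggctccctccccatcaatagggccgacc
ALDOC, chr17:28576846-28577145, reverse strand: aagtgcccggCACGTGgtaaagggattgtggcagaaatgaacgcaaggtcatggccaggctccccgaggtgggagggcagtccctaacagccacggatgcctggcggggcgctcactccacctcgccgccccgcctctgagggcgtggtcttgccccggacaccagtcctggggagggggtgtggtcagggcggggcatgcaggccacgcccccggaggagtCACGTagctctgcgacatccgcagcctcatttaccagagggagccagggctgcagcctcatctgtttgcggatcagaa
LDHA, chr11:18394313-18394612, forward strand: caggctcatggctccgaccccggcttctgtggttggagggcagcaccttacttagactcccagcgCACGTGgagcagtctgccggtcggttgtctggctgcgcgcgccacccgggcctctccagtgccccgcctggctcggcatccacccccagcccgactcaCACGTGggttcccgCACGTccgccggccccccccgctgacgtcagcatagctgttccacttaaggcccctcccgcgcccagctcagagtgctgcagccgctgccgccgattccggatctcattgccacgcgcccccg
LDHB, chr12:21657793-21658092, reverse strand: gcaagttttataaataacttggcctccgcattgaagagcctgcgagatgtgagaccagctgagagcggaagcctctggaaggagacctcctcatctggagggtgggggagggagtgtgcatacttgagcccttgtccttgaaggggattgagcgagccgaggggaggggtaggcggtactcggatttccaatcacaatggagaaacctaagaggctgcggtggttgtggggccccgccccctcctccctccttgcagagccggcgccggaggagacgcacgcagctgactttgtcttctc
PDK3, chrX:24465036-24465335, forward strand: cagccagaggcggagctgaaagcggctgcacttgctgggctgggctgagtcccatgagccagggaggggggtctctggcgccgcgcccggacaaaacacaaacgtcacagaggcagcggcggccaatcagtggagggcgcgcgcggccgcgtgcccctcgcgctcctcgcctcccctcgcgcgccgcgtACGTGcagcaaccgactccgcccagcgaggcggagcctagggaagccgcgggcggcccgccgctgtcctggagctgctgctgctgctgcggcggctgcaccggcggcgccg
BNIP3, chr10:131981874-131982173, reverse strand: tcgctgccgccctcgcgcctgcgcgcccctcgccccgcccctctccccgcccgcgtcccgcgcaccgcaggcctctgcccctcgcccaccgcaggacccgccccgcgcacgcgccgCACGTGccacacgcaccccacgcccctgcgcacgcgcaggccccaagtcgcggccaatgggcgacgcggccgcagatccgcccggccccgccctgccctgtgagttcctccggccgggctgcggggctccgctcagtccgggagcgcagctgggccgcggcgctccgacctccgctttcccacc

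The ALDOA window shown is the middle one of its annotated windows, and the other two each held 1 match. LDHA had 5 matches to ACGTG in the window shown and 0 in its other window, at chr11:18396101-18396400. LDHB had 0 matches to ACGTG in its window, where GCGTG was not counted. Of the 39 members, 35 had at least 1 of 64 windows in the table. ACGTG on either strand was present in 24 of the 64 windows (37.5%) and in 7518 of the 35116 windows of all genes (21.4%). CACGTG was present in 9 of the members' windows (14.1%) and in 7.26% of all windows. Counted per gene with at least 1 window, ACGTG was present in 20 of the 35 members (57.1%) and in 24.9% of 27305 genes. The members include textbook HIF-1 targets, so this excess describes the list. By direction and again per gene, 7 of the 10 members with a window that were higher in both JQ1 comparisons held ACGTG (ALDOC, GAPDH, ENO2, PFKFB3, PDK3, EGLN1 and BNIP3), as did 6 of the 13 that were lower in both (HK2, GPI, PFKP, ALDOA, PDK2 and PGD) and 7 of the other 12. These counts are to be set beside the 57.1% of all members and are too few to tell the directions apart. A match is a description of the letters and not a bound site.

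To ask how PHA changed the same genes, DMSO + PHA was compared with DMSO. Of all genes 3.29% lay past 2-fold, and of the 35 members 1, SLC2A3. As stated above, SLC2A3 is among the 35 only because of its values in the PHA libraries, so this count is not independent of its direction. Past 1.5-fold, 2 members were higher (SLC2A3 and ALDOC; all genes, 5.59%) and 0 were lower (all genes, 3.83%). In JQ1-treated cells, JQ1 + PHA against JQ1, 2.07% of all genes and 0 of 35 members lay past 2-fold, and 0 members were past 1.5-fold in either direction, against 2.58% of all genes higher and 3.05% lower. The median size of the PHA difference was 0.10 for the members and 0.16 for all genes in DMSO-treated cells, and 0.08 and 0.10 in JQ1-treated cells. Each PHA comparison shares a library with a JQ1 comparison, so their values are given side by side and not correlated.

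SLC2A3 was higher with PHA by 1.55 in the log2 ratio of counts (1.29 to 1.81) in DMSO-treated cells and by 0.36 (0.11 to 0.62) in JQ1-treated cells. Its share of the summed FPKM of SLC2A1 and SLC2A3 was 10.4% with DMSO and 12.7% with JQ1, and 24.6% and 17.6% in the presence of PHA. ALDOC was higher with PHA by 0.62 (0.43 to 0.82) and 0.15 (0.00 to 0.31). ENO2 was higher by a like amount in both settings, at 0.35 (0.24 to 0.45) and 0.46 (0.38 to 0.55), as was HK1, at 0.25 and 0.18.

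LDHA and LDHB were lower with PHA in DMSO-treated cells, at -0.40 (-0.43 to -0.38) and -0.25 (-0.27 to -0.22), and in JQ1-treated cells by less, at -0.14 (-0.17 to -0.11) and -0.07 (-0.10 to -0.04). TKT was lower with PHA at -0.28 (-0.33 to -0.23) in DMSO-treated cells and stood at 0.04 (-0.03 to 0.10) in JQ1-treated cells. HIF1A was higher at 0.22 (0.14 to 0.30) and 0.08 (0.02 to 0.15), while BNIP3 stood at 0.02 (-0.08 to 0.13) and -0.20 (-0.28 to -0.11). In all, 9 members had an interval above 0 and 11 below 0 in DMSO-treated cells, where 24.7% and 25.1% of all genes did, and 10 and 11 in JQ1-treated cells, where 15.6% and 15.7% did. Here too the members had more counts than other genes and so narrower intervals, and nothing particular to them is read from these counts.

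A wider list of 79 further genes of the same pathways was examined in the same way, of which 43 reached a mean of 1 FPKM. With JQ1, 3 were past 2-fold upward and 5 downward without PHA, and 1 and 6 with PHA, which is 18.6% and 16.3% of the 43 beside the shares of all genes given above. Some of these genes, marked below, reached the level only through the libraries in which they were high. PRPS2, a phosphoribosyl pyrophosphate synthetase that uses ribose 5-phosphate for nucleotides, had 2692 counts with DMSO and 735 with JQ1 in unstimulated cells, against 2243 and 720 in PHA-stimulated cells. Its ratios of FPKM + 0.1 were -1.92 and -1.55. Of the 10 further genes of the pentose phosphate pathway, 7 reached the level. With JQ1, 2 were past 1.5-fold upward and 2 downward without PHA (all genes, 14.8% and 19.3%), and 2 and 1 with PHA (all genes, 11.7% and 17.8%), so these genes did not share a direction.

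Of the 28 further genes of the response to low oxygen, 17 reached the level, and 6 were past 1.5-fold upward and 2 downward with JQ1 without PHA (all genes, 14.8% and 19.3%), and 4 and 1 with PHA (all genes, 11.7% and 17.8%). NDRG1, a gene widely used as a marker of hypoxia, measured 0.697, 1.97, 1.05 and 2.15 FPKM in turn, with JQ1 ratios of 1.38 and 0.96. NDRG1 reached the level only because of its values in the JQ1 libraries, so its place in these counts is not independent of its direction. BNIP3L, the paralog of BNIP3, had ratios of 1.25 and 0.48 and KDM3A, a histone demethylase, of 1.01 and 0.62, both named after their values were seen. BHLHE40, a repressor also counted among hypoxia genes, went the other way, with 214, 74, 211 and 63 counts and ratios of -1.48 and -1.53. MXI1, an antagonist of MYC, had 493, 150, 168 and 323 counts, so it was highest with DMSO, and its JQ1 ratio was -1.67 without PHA and 0.95 with PHA. The hypoxia genes thus did not move as 1 group. With PHA, MXI1 was the 1 gene of the 43 past 2-fold in DMSO-treated cells, at -1.52, and in JQ1-treated cells it stood at 1.10, with SLC16A7 at -2.00 as the other gene past 2-fold there.

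Among further isoenzymes and transporters, ENO3, the muscle enolase, had 328, 141, 391 and 113 counts, and SLC2A6, a further member of the glucose transporter family, had 132, 50, 153 and 64. Both were lower with JQ1, at -1.20 and -1.60 for ENO3 and at -1.31 and -1.07 for SLC2A6. ENO3 measured 2.31 FPKM with DMSO and 2.63 with DMSO + PHA, against 0.949 with JQ1 and 0.804 with JQ1 + PHA. SLC2A6 measured 1.46 and 1.62 against 0.528 and 0.714 in the same order. Both thus reached the level only through their DMSO libraries. SLC16A7, the monocarboxylate transporter MCT2, had 807, 756, 989 and 153 counts and was low in the JQ1 + PHA library alone, with JQ1 ratios of -0.15 and -2.38. INSIG2, a regulator of sterol synthesis also listed as a hypoxia gene, had 504, 713, 285 and 684 counts and ratios of 0.42 and 1.29. HKDC1, a further hexokinase, lay below the level, with 92 counts with DMSO, 45 with DMSO + PHA and 0 in both JQ1 libraries. Against a limit of 3 counts per library it was at least 32.1-fold lower with JQ1 without PHA and at least 14.2-fold lower with PHA, and it is named after its values were seen.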

How the data were processed

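RNA had been sequenced from 1 library per condition. The deposited tables, 1 per library, give for each gene a whole-number read count that is not normalized and an FPKM value, both made by the authors. Per the labels and the study's methods, reads were aligned with Hisat2 2.0.4 to GRCh38, while the submitters' processing notes name TopHat2 2.0.9 and Cufflinks 2.1.1. The library kit is a stranded one in the methods and a different one in the labels. The counting program, its strand setting and the annotation release are not given in the sources used here. The gene length implied by a count and its FPKM was 1.02 to 8.75 times the GENCODE 44 canonical transcript of the members (median 2.86), so FPKM levels compared between genes depend on that length, while ratios of 1 gene between libraries do not.

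The 39 members, the wider list and the tests were chosen with earlier results of these data known. Ratios used log2(FPKM + 0.1) where the mean FPKM reached 1, a scale that understates the change of low genes, and thresholds of 2-fold and 1.5-fold. Single genes used shares of total counts with 95% exact intervals, and pairs of isoenzymes used ratios of counts with normal-approximation intervals, both for counting error only. In full were named the members past 2-fold or with opposite directions, and the 2 members of each step with the highest mean FPKM, with up to 5 genes of the wider list per comparison. Other scalings used edgeR 4.0.16 and DESeq2 1.42.0 size factors on the counts, with no test. The 2-fold calls and the exact intervals of single genes were tested on simulated counts with counting error only. The intervals of isoenzyme pairs and of differences between settings, the sums by step and the motif search were not simulated. Python 3.11.15, R 4.3.3 and scipy 1.17.1 were used.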

Additional observations from a re-analysis of the deposited data

Results flagged for a closer look

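Some members had counting intervals that lay on opposite sides of 0 in the 2 settings. Each setting is 1 pair of libraries, so the difference between the settings was not tested against the spread between cultures. For SLC2A3 the JQ1 log2 ratio of counts with PHA minus that without PHA was -1.18. The same difference was 0.22 for TPI1, -0.13 for PGK1 and 0.26 for LDHA. The PHA ratio had opposite directions in JQ1-treated and DMSO-treated cells for GAPDH, with a difference of 0.32, and for PGD, with a difference of 0.20, as well as for PGK1. Pseudogenes of TPI1 had up to 12% as many counts as the gene itself, those of LDHA up to 1.45% and those of GAPDH up to 1.36%.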

How the results depend on the processing

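At a 1.5-fold threshold in place of 2-fold, 10 members passed with JQ1 without PHA, 7 with JQ1 in the presence of PHA and 2 with PHA in DMSO-treated cells. The count of 1 for PHA in DMSO-treated cells became 0 with a pseudocount of 1, with a mean FPKM of at least 5 and with a 3-fold threshold. The median log2 ratio of the members, near 0 throughout, changed sign for JQ1 without PHA from 0.05 to -0.03 with a mean FPKM of at least 5, and for PHA in DMSO-treated cells from -0.01 to 0.03 with FPKM rescaled to a common total, and it lay between -0.01 and 0.02 for PHA in JQ1-treated cells. The other counts of members stayed within 1.5 times the main count. Other scalings moved the median of all genes by at most 0.07 on the log2 scale, and the ratios that changed sign under them, in 0, 1, 5 and 3 members of the 4 comparisons, all lay under 0.2. The JQ1 log2 ratio of BNIP3, whose 39 pseudogenes had up to 13.9% as many counts as the gene itself, was 0.82 and 0.61 with their counts added. The share of a gene within its isoenzyme family moved with the unit. LDHA was 21.9% of the summed FPKM of its pair with DMSO, 50.7% of the counts and 37.4% per base of the canonical transcript. The last of these units, and single members and the differences between the JQ1 ratios under other scalings, were alternatives chosen after the data were seen, as were the shares over all genes and all pairs by counting interval. No paired analysis was possible because each condition had 1 library, and for the same reason no library could be left out.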
